A study of Mus musculus with 384 samples.

Results

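Bst1 and Cd38 are 2 of the 96 genes or assays measured by quantitative PCR in single common lymphoid progenitors (CLPs), bone marrow cells from which B, T, natural killer and dendritic cells can arise. They were taken by name: Bst1 is the assay called CD157 in the table, and Cd38 carries its own symbol. The cells came from wild-type C57/Bl6 mice and were sorted as Lin-, B220-, Flt3+ and Il7r+ cells with low Kit and low Sca1. The series has no treated or mutant group. On each of 4 plates, P0 to P3, 90 wells held 1 cell, 4 wells received no reverse transcriptase (no-RT), 1 well held 10 cells and 1 well held 20 cells. Of the 360 single-cell wells, 13 were left out, leaving 86 cells on P0 and 87 on each other plate, with products for 22 to 54 assays. Of the 7 listed markers of CLPs, 3 were measured, and Kit, Ikzf1 and Notch1 gave a product in 97.4%, 99.7% and 98.3% of cells. The plate was the replicate (n = 4). Whether the plates hold cells of different animals is not in the labels, so p-values measure only how the plates vary, and that variation may be technical.

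Bst1 (CD157) and CD38 are related membrane enzymes that face the outside of the cell and use NAD as a substrate. Both can make cyclic ADP-ribose or ADP-ribose from it, messengers that bear on calcium release. In the bone marrow, BST1 was named for the stromal cells that express it and is also found on early B cells, while CD38 is a widely used surface marker of lymphocytes and of stages of blood formation. In B cell development Ebf1 acts early, Ly6d marks CLPs that have begun the B lineage program, and Pax5 commits cells to it.

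The genes lie side by side on mouse chromosome 5, with 0 listed genes between them in the RefSeq table of the assembly GRCm38.p6. The 250 bases before the start of Cd38 are shown as the stretch next to its start site; a Bst1 window was not analysed here. They come from the RefSeq promoter table of GRCm38.p6 and lie at chr5:43868559-43868808 on the plus strand, with a match to the GATA motif letters in capitals.
Cd38: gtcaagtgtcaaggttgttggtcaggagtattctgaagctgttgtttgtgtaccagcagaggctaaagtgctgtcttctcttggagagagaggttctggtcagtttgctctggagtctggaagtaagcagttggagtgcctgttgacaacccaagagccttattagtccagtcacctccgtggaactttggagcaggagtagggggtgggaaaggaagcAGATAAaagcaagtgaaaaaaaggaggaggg
On both strands, the letters AGATAA matched once, 31 bases before the start, and 9.99% of 32851 promoter windows held them. The EBF core CCCNNGGG, the E-box CAGGTG and the forkhead letters TGTTTAC had no match in this window, and 11.8%, 17.2% and 3.17% of windows held them. These motifs do not overlap each other in this window, and a match is a description of the letters.

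Each gene was found in about the same minority of cells. A value is a Ct, the cycle at which the product crossed the detection threshold, so a lower Ct means more cDNA. A Ct below 28 was counted as a product, and 40 stands for no product. Bst1 gave a product in 13 of 86 cells on P0, 12 of 87 on P1, 16 of 87 on P2 and 14 of 87 on P3. Cd38 gave one in 13 of 86, 14 of 87, 12 of 87 and 17 of 87 cells. The shares of the 2 genes overlapped over their whole range, with Cd38 higher on 2 plates. They came to 15.8% ± 1.94 for Bst1 and 16.1% ± 2.46 for Cd38 (mean ± SD over plates, n = 4) or 55 and 56 cells in all. The difference, Cd38 minus Bst1, was 0.29 percentage points (95% interval -4.59 to 5.74), and an exact two-sided permutation test over plates gave p = 0.943. Ranked by share, Cd38 and Bst1 stood 61st and 62nd of the 96 assays, next to Il6ra at 17.3% and Il2rb at 14.4%, both cytokine receptor genes.

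Neither gene gave a product in a no-RT well (0 of 16, which allows a share of up to 18.8%). That limit lies above the share of either gene in cells, so the no-RT wells alone do not bound the background tightly. Across plates the shares were called above no-RT by limma (adjusted p = 3.28e-08 for Bst1 and 1.04e-07 for Cd38), as were 84.1% of the 88 assays tested. The fit takes the no-RT share of 0 on each plate as exact. These p-values therefore leave out the counting error of 4 no-RT wells per plate and do not tighten the limit above. This limit and the binomial intervals of each plate cover counting error only. The intervals given for differences between the genes come from the spread of the plate values.

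**Figure D1:**
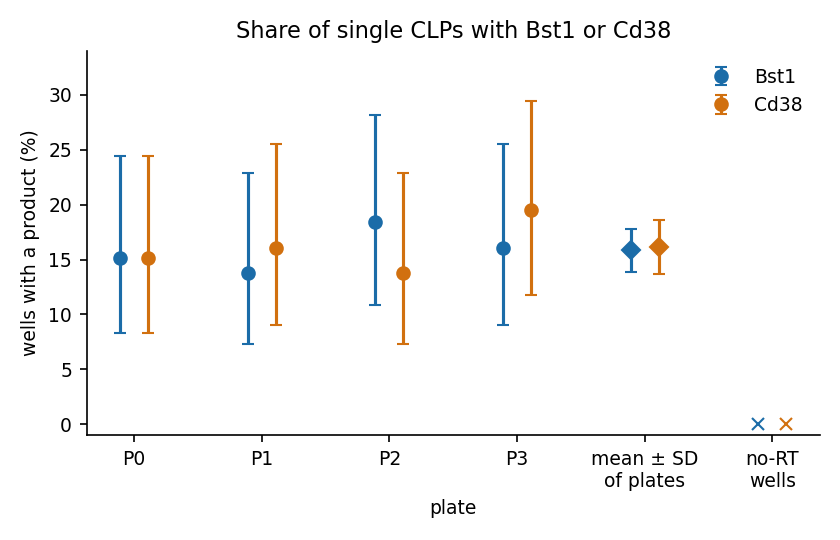
Share of wells with a product (y axis, percent) for Bst1 and Cd38 on plates P0 to P3 (x axis). Circles are plates with exact 95% binomial intervals, diamonds are the mean ± SD of the 4 plates, and crosses are the 16 no-RT wells. The means of 15.8% and 16.1% lie within each other's SD, and both genes are at 0 in no-RT wells.

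The Ct of the 2 genes also lay close together, with Bst1 the lower on each plate. The median Ct of Bst1 was 17.20 on P0, 17.39 on P1, 16.59 on P2 and 17.35 on P3. For Cd38 the medians were 17.61, 17.91, 17.32 and 18.07. The ranges of the plate medians overlapped slightly, since Cd38 on P2 was below Bst1 on P1 and P3. The mean of the medians was 17.13 ± 0.37 for Bst1 and 17.72 ± 0.33 for Cd38 (SD, n = 4). The difference of -0.59 cycles (95% interval -1.47 to 0.07) did not pass the exact two-sided permutation test (p = 0.0857, the smallest possible being 0.0286). Bst1 was lower in 4 of 4 plates, for which an exact test of sign flips within plates gives p = 0.125, the smallest it allows.

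Single cells spanned a wide range of Ct for both genes. Bst1 ran from 14.33 to 22.19 and Cd38 from 13.78 to 23.83. Few products were late: 1 Bst1 cell (P1) and 7 Cd38 cells had a Ct of 19 or later. A further Bst1 well on P1 had a Ct between 28 and 40 and was counted as no product. Different assays can amplify with different efficiency, so a Ct difference between the genes is not a ratio of transcripts. Among cells with the product, the Ct of Bst1 followed the mean Ct of the reference genes with a Spearman rho of 0.41 (n = 55 cells) and that of Cd38 with 0.26 (n = 56 cells). Cells of a plate share its run and their own cDNA yield, so these are descriptions without a test.

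**Figure D2:**
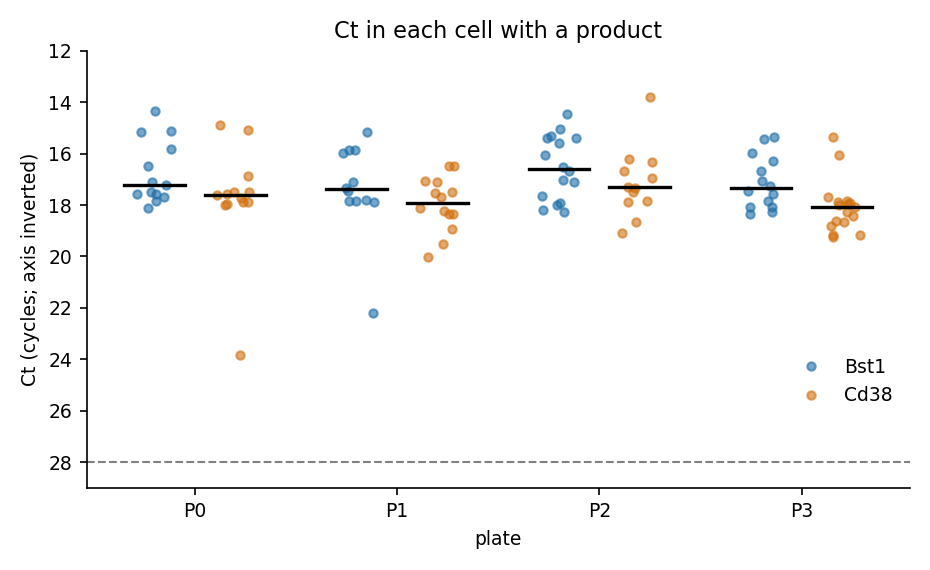
Ct (y axis, cycles, inverted so that more cDNA is higher) of each cell with a product for Bst1 or Cd38, by plate (x axis). Points are cells, black bars the plate medians and the dashed line the threshold of 28. The Bst1 median is above the Cd38 median on the inverted axis on each plate, by less than the spread of the cells.

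Most cells with one enzyme lacked a product of the other. Both were found in 3 cells on P0, 4 on P1, 2 on P2 and 4 on P3. These 13 cells were 23.6% of the Bst1 cells and 23.2% of the Cd38 cells, and independence within plates would give 8.84. A further 42 cells had Bst1 alone, 43 had Cd38 alone, and neither was found in 63, 65, 61 and 60 cells of P0 to P3. The log2 odds ratio, which is above 0 when 2 products share cells more often than independence gives, was 1.01, 1.72, 0.01 and 0.94 on P0 to P3. Its mean of 0.92 ± 0.70 was not called (adjusted p = 0.32, limma over 1176 gene pairs). The pair was above 0 on 4 of 4 plates, close to 0 on P2.

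The 13 cells with both products all had B lineage products. Of them, 11 had Pax5 and the other 2 had Ebf1 and Ly6d without Pax5. Each of the 13 had Ebf1, Ly6d and the FOX01 assay. These products were also common elsewhere: Ebf1 was in 92.9% of cells with Bst1 alone, 67.4% with Cd38 alone and 70.3% with neither, and the FOX01 assay in 92.9%, 88.4% and 78.7%. Gfra2 was in 12 of the 13, against 57.1%, 39.5% and 13.7%. Of the 8 measured myeloid genes, Csf1r was in 8 of the 13 (61.5%), against 4.76%, 32.6% and 21.3%, and Csf3r in 0, against 38.1%, 41.9% and 54.2%. They were named after the shares were seen. Among the others, Gfi1 was in 69.2%, against 81.0%, 60.5% and 75.5%, and Klf4 in 23.1%, against 23.8%, 23.3% and 10.4%. These shares were described and not tested. The Bst1 Ct of the 13 cells had a median of 15.98, against 17.23 in cells with Bst1 alone, and the Cd38 Ct a median of 17.97, against 17.85 in cells with Cd38 alone. They also had the earliest reference genes, with a median Ct of 12.14 against 12.70, 12.97 and 12.64 in cells with Bst1 alone, Cd38 alone or neither. They had products for a median of 46 assays, against 44, 43 and 42. The part of cDNA yield or of a second cell in these wells was not tested. Within the 90 cells with Pax5 the log2 odds ratio of Bst1 with Cd38 was 0.44 (adjusted p = 0.757, limma), and within the cells without it was 0.59 (adjusted p = 0.807, limma), where only 2 cells had both.

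Bst1 was detected with genes of the B lineage. Of the 48 genes tested with it, 5 were called as found in the same cells (10.4%, against 2.98% of all 1176 pairs in that direction). None was called as found apart (0 of 48, against 1.62% of all pairs), but this depended on the setting: with a pseudocount of 1, Cd34 (-1.74, adjusted p = 0.0207, limma) and Csf3r, the receptor of granulocyte colony-stimulating factor (-1.48, adjusted p = 0.0459), were called apart from Bst1. With cells split at the plate's median number of assays, Cd34 (-1.93, adjusted p = 0.0071, limma), Csf3r (-1.87, adjusted p = 0.0122) and Id2 (-1.56, adjusted p = 0.0393) were, and without P2 Csf3r was (-2.28, adjusted p = 0.0497). The 5 were Ly6d, Gfra2, Pax5, Ebf1 and Klrb1c, and they are also the 5 with the largest log2 odds ratio, so the genes most like Bst1 in pattern over all kept cells of the 4 plates. Counted in either direction, Pax5 had 12 called pairs, and Ebf1, Gfra2 and Ly6d had 9 each, against 5 for Bst1 and for Cd38. Of the 20 listed B lymphoid genes, 9 were measured and 4 had a share that could be tested. All 4 of those were called with Bst1, with a median log2 odds ratio of 3.06, against 0.15 over the 48 genes. The list was drawn up with earlier results of these data known, Gfra2 in particular, so its count is a description.

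Ly6d, the surface marker of B-biased CLPs, was in 53 of the 55 Bst1 cells, where independence would give 38.5. Its share was 87.5% to 100% of Bst1 cells and 60.3% to 72.0% of other cells over plates, with no overlap. The log2 odds ratios were 4.16, 3.30, 1.84 and 3.84 on P0 to P3 (mean 3.29, adjusted p = 0.0036, limma). Gfra2, which encodes a co-receptor of the growth factor neurturin, was in 36 Bst1 cells (13.8 under independence). Its share was 56.2% to 76.9% with Bst1 and 13.3% to 21.9% without, again with no overlap. The log2 odds ratios of Gfra2 were 3.75, 3.56, 2.59 and 2.59 (mean 3.12, adjusted p = 0.00286, limma).

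Pax5 was in 35 Bst1 cells, against 14.2 under independence. Its log2 odds ratio was 4.64, 3.65, 2.12 and 1.58 on P0 to P3 (mean 3.00, adjusted p = 0.0103, limma), highest on P0 and lowest on P3. Ebf1 was in 52 of the 55 Bst1 cells (40.4 under independence), with values of 3.17, 1.69, 1.93 and 3.47 (mean 2.56, adjusted p = 0.0103, limma). The Ebf1 values rest on the 3 Bst1 cells without it. Klrb1c, which encodes the natural killer receptor NK1.1, was in 16 Bst1 cells (7.39 under independence), and its values of 1.97, 1.98, 1.49 and 2.23 were close on all plates (mean 1.92, adjusted p = 0.0246, limma). Of the other 5 natural killer and innate lymphoid genes tested with Bst1, 0 were called, and the median of all 6 was -0.59. Cd34, a sialomucin of stem and progenitor cells, was in 48 Bst1 cells (52.0 under independence), at -3.25, -1.05, 0.75 and -2.62, and was not called in the main setting (mean -1.54, adjusted p = 0.222, limma), unlike in the 2 alternatives given above.

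With 3 plates the fits had fewer degrees of freedom, and part of these calls ended. Without P1, 0 of the 5 passed: Ly6d was at 3.28 (adjusted p = 0.0548, limma), Gfra2 at 2.98 (0.0548), Ebf1 at 2.86 (0.0548), Pax5 at 2.78 (0.0939) and Klrb1c at 1.90 (0.106). Without P3, Gfra2 and Pax5 passed, while Ly6d (3.10, adjusted p = 0.058, limma) and Ebf1 (2.26, adjusted p = 0.114) did not. Klrb1c passed only with all 4 plates, at 1.81 to 2.06 with each left out in turn. All 5 stayed above 0 whichever plate was left out.

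Because Pax5 cells nearly always had Ebf1 (89 of 90) and Ly6d (87 of 90), the pairs were also read on each side of Pax5, a split chosen after the data were seen. Among the cells without Pax5, 20 had Bst1, and Bst1 was called with Ly6d (2.10, adjusted p = 0.0378, limma) and with Gfra2 (2.19, adjusted p = 0.0323). There Ebf1 was at 1.31 (adjusted p = 0.297) and Klrb1c at 1.67 (adjusted p = 0.0787). Among the 90 cells with Pax5, Gfra2 was at 1.88 (adjusted p = 0.0728), Klrb1c at 0.54, Ly6d at 0.43 and Ebf1 at -0.20, the last on 1 cell without Ebf1. The split also brought calls that all cells did not give: Tnfrsf1b, a tumor necrosis factor receptor, with Bst1 among Pax5 cells (2.09, adjusted p = 0.0419, limma), and Il2rb with Bst1 among cells without Pax5 (2.34, adjusted p = 0.0169).

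Cd38 had partners called in both directions. Of 48 genes tested, 2 were called in the same cells (4.17%, against 2.98% of all pairs) and 3 apart (6.25%, against 1.62%). Gfra2 and Ly86 were found with Cd38, and Cd34, Il12rb1 and Hoxa9 apart from it. Next in likeness to Cd38 over the same cells came Pax5, Csf1r, the receptor of macrophage colony-stimulating factor, and Klrb1c, at 1.47, 1.43 and 1.27, none of them called. Of the 4 tested B lymphoid genes, 1 was called with Cd38, with a median of 1.08 against -0.09 over the 48 genes. Of the 4 tested stem and multipotent genes, 2 were called apart from Cd38, Cd34 and Hoxa9, and neither was shown to differ between Cd38 and Bst1 (adjusted p = 0.613 and 0.055, limma, in the test of the difference). Of the 14 listed genes of NAD and purine ectoenzyme metabolism, only Bst1 and Cd38 themselves were on the panel.

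Ly86, which encodes MD-1, the partner protein of the receptor Cd180, was in 46 of the 56 Cd38 cells (31.1 under independence). Its share was 75.0% to 88.2% with Cd38 and 45.3% to 52.9% without, with no overlap. The log2 odds ratios were 1.62, 2.20, 1.71 and 2.47 on P0 to P3 (mean 2.00, adjusted p = 0.0216, limma). Gfra2 was in 29 Cd38 cells (14.2 under independence), at 2.01, 2.44, 1.40 and 2.33 (mean 2.04, adjusted p = 0.0207, limma). Pax5 was in 25 Cd38 cells (14.6 under independence) with nearly the same value on each plate, 1.59, 1.41, 1.40 and 1.45, and was not called (adjusted p = 0.0685, limma). Limma draws the spread of each pair toward that of all pairs, which enlarges one as small as this.

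Cd34 was in 47 of the 56 Cd38 cells, where independence would give 52.9. Its share was 76.5% to 91.7% with Cd38 and 95.9% to 97.3% without, and the log2 odds ratios were -2.13, -2.01, -1.94 and -3.19 (mean -2.32, adjusted p = 0.0123, limma). That value rests on the 9 Cd38 cells without Cd34. Il12rb1, a subunit of the interleukin 12 receptor, was in 5 Cd38 cells (17.2 under independence), at 0% to 16.7% of Cd38 cells and 28.8% to 41.3% of others. Its log2 odds ratios were -3.74, -1.88, -1.57 and -1.88 (mean -2.27, adjusted p = 0.0227, limma). Hoxa9, a homeobox gene of stem and early progenitor cells, was in 39 Cd38 cells (47.9 under independence), at -1.69, -2.15, -1.75 and -1.70 (mean -1.82, adjusted p = 0.0297, limma). All 3 were below 0 on 4 of 4 plates.

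Part of the Cd38 calls also ended with a plate left out. Without P1 or without P3, 0 of the 5 passed, without P0 only Cd34 did, and without P2 Cd34, Gfra2 and Il12rb1 did. The values moved little: with a plate left out, Gfra2 lay at 1.91 to 2.06 where it was not called, Ly86 at 1.85 to 2.13 and Hoxa9 at -1.87 to -1.71. Cd34 was at -2.42 without P1 (adjusted p = 0.0643, limma) and at -2.03 without P3 (adjusted p = 0.114). Il12rb1 was at -1.78 without P0 (adjusted p = 0.0872, limma) and at -2.40 without P1 or P3. Among cells without Pax5, Cd34 (-3.54, adjusted p = 5.35e-04, limma), Il12rb1 (-1.99, adjusted p = 0.0442) and Hoxa9 (-1.97, adjusted p = 0.042) were called apart from Cd38. The Cd34 value there rests on 6 cells without Cd34. Among cells with Pax5 the 3 were at -0.79, -1.21 and -1.31, not called, while Csf1r was called with Cd38 there (2.48, adjusted p = 0.0128, limma). Gfra2 and Ly86, found with Cd38 over all cells, were not called with it on either side of Pax5.

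**Figure D3:**
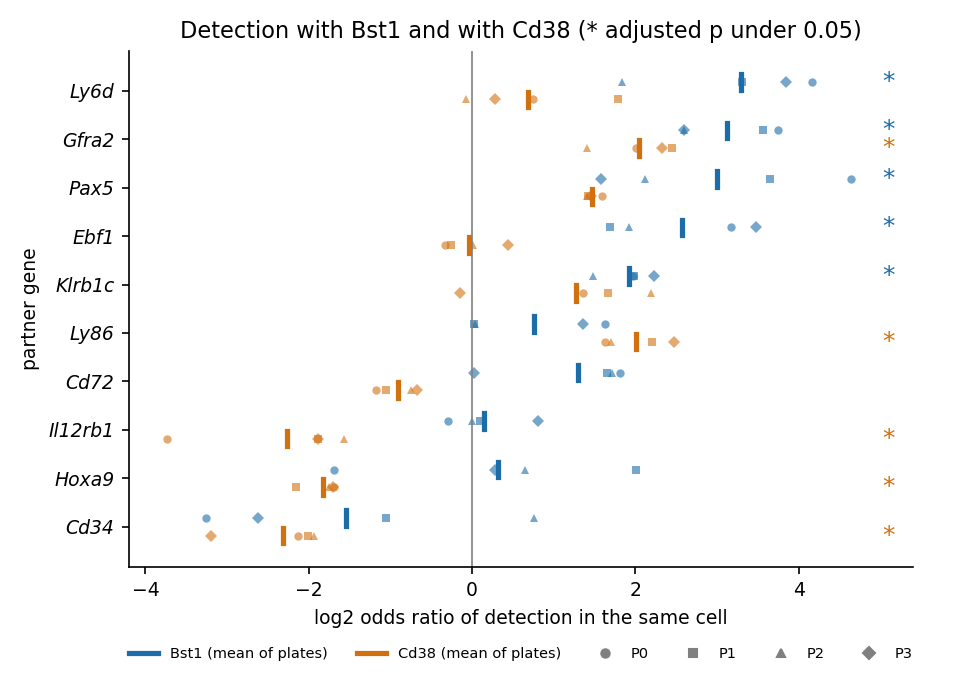
Log2 odds ratio of detection in the same cell (x axis) of 10 partner genes (y axis) with Bst1 (blue) and Cd38 (orange). Symbols are the 4 plates, bars their mean, and stars mark an adjusted p under 0.05 in limma. Ly6d lies at 3.29 with Bst1 and 0.69 with Cd38, and Il12rb1 at 0.15 and -2.27.

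The difference between the paralogs was tested directly, as the log2 odds ratio with Bst1 minus that with Cd38 within each plate. Of 47 genes, 4 differed (8.51%), each with Bst1 on the higher side and on 4 of 4 plates. Ly6d differed by 3.42, 1.52, 1.91 and 3.56 on P0 to P3 (mean 2.60, adjusted p = 0.0148, limma), with 2 Bst1 cells and 12 Cd38 cells lacking it. Ebf1 differed by 3.50, 1.95, 1.91 and 3.04 (mean 2.60, adjusted p = 0.0148, limma), with 3 Bst1 cells lacking it. It was in 42 of the 56 Cd38 cells, where independence would give 41.5. Il12rb1 differed by 3.44, 1.98, 1.57 and 2.69 (mean 2.42, adjusted p = 0.0163, limma), being at 0.15 with Bst1 and -2.27 with Cd38. Cd72, a B cell co-receptor gene, differed by 2.98, 2.71, 2.45 and 0.70 (mean 2.21, adjusted p = 0.0306, limma), with only 1 Bst1 cell and 7 Cd38 cells lacking it.

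The other partners were not shown to differ. Pax5 was at 3.00 with Bst1 and 1.47 with Cd38 (difference 1.53, adjusted p = 0.164, limma), Gfra2 at 3.12 and 2.04 (1.08, adjusted p = 0.279), Ly86 at 0.76 and 2.00 (-1.24, adjusted p = 0.251), Hoxa9 at 0.31 and -1.82 (2.14, adjusted p = 0.055) and Cd34 at -1.54 and -2.32 (0.78, adjusted p = 0.613). Without P0 or without P3, 0 of the 4 differences passed: Ly6d was at 2.33 and 2.28, Ebf1 at 2.30 and 2.45, Il12rb1 at 2.08 and 2.33 and Cd72 at 1.95 and 2.72. Without P1, Ly6d and Ebf1 passed while Il12rb1 (2.57, adjusted p = 0.0537, limma) and Cd72 (2.05) did not, and without P2 Cd72 did not (2.13, adjusted p = 0.0697). Computed separately for cells below and above the plate's median number of assays, the difference for Ly6d was 1.87 (adjusted p = 0.0577, limma) and for Cd72 1.47 (adjusted p = 0.123), while Ebf1 and Il12rb1 passed.

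Set out by the B lineage genes in the cell, Bst1 was found in few cells that lacked Ebf1 or Ly6d. The difference between the genes within a group was not tested. Bst1 was in 2 of 62 cells with none of Ebf1, Ly6d and Pax5, in 1 of 66 with 1 of Ebf1 and Ly6d, in 2 of 33, 2 of 32, 6 of 29 and 7 of 35 with both on P0 to P3, and in 35 of 90 with Pax5. Cd38 was in 9 of 62, in 7 of 66, in 4 of 33, 4 of 32, 2 of 29 and 5 of 35 with both, and in 25 of 90. Of all Bst1 cells, 63.6% had Pax5 and 30.9% had Ebf1 and Ly6d without it; of all Cd38 cells, 44.6% and 26.8% did. These groups follow the B lineage genes, not time.

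The plate values show where the steps lay. Between cells with 1 and cells with both of Ebf1 and Ly6d, the Bst1 share went from 0%, 4.55%, 0% and 0% to 6.06%, 6.25%, 20.7% and 20.0% on P0 to P3. In cells with Pax5 it was 50.0%, 40.9%, 38.1% and 28.0%. The first of these steps was 12.1 points and the second 26.0 points, each with no overlap between plates and an exact two-sided permutation p of 0.0286, the smallest possible with 4 plates against 4. The groups come from the same plates, and exact sign flips within plates gave p = 0.125 for each of these steps, the smallest they allow. Cd38 differed by 1.43 points at the first (exact p = 0.8) and by 16.1 points at the second (exact p = 0.0286, and 0.125 within plates), to 27.3%, 27.3%, 23.8% and 32.0% in Pax5 cells. After adjustment over the 6 steps tested, these 3 had p = 0.0571 (exact permutation test), so none passed 0.05. The steps from none to 1 of Ebf1 and Ly6d were -1.24 points for Bst1 and -4.68 for Cd38 (adjusted exact p = 1 and 0.686). Cells with and without each gene had similar numbers of assays found: plate medians averaged 43.0 with Bst1 and 42.2 without (exact permutation p = 0.371), and 42.5 with Cd38 and 42.2 without (exact p = 1).

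**Figure D4:**
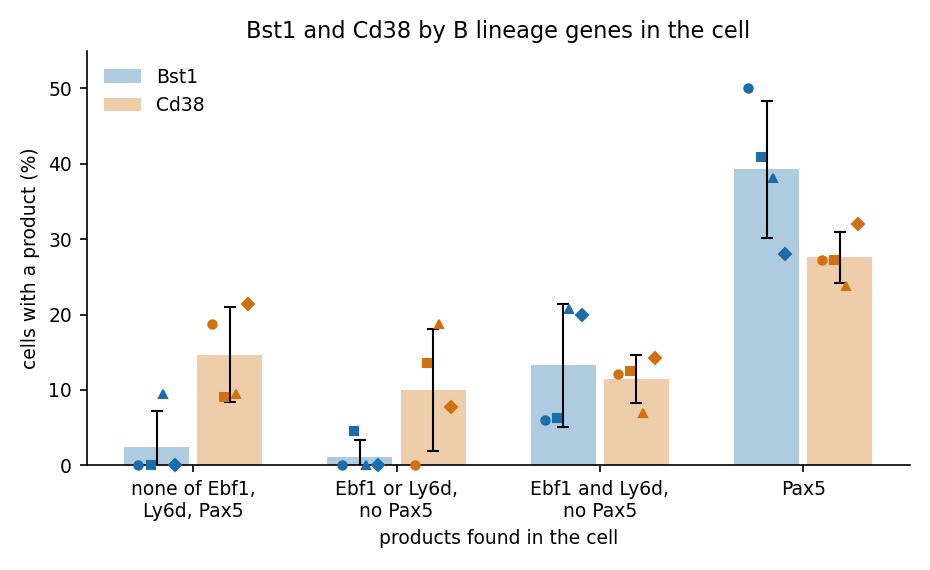
Share of cells with a product for Bst1 or Cd38 (y axis, percent) by the B lineage products in the same cell (x axis). Bars are the mean of 4 plates, error bars the SD, and circles, squares, triangles and diamonds plates P0, P1, P2 and P3. Bst1 is at 2.38%, 1.14%, 13.3% and 39.3% from left to right, and Cd38 at 14.7%, 10.0%, 11.5% and 27.6%.

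Bst1 cells also had more cDNA of Ebf1, Pax5 and Ly6d in the main setting, compared with other cells in which these genes were found. The calls of Pax5 and Ly6d depended on the setting, and levels were not read on each side of Pax5. Among cells with the partner's product, the level (28 minus Ct, in cycles) was compared between cells with and without Bst1 for 42 genes. It was higher with Bst1 for 5 genes (11.9%, against 2.06% of all 1889 ordered pairs) and lower for 1 (2.38%, against 0.847%). Among them were Ebf1, Pax5, Ly6d and the FOX01 assay, whose name matched no gene of the table. Of the 6 B lymphoid genes tested, 3 were higher, with a median of 1.17 cycles against 0.16 over the 42 genes.

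The mean Ct of Ebf1 was 11.74, 12.56, 12.67 and 13.12 in Bst1 cells of P0 to P3 and 14.39, 14.72, 14.56 and 14.50 in the others, with no overlap. The level was 2.02 cycles higher (adjusted p = 0.00616, limma), higher on 4 of 4 plates. Pax5 was at 14.54, 14.89, 14.58 and 14.66 with Bst1 and at 16.19, 16.17, 17.10 and 17.01 without, again with no overlap, a difference of 1.95 cycles (adjusted p = 0.00892, limma). The FOX01 assay was 1.63 cycles higher (adjusted p = 0.00613) and Ly6d 1.25 (adjusted p = 0.0492). The plate means of the Ly6d Ct overlapped, at 10.70 to 11.41 with Bst1 and 11.26 to 12.98 without. Cd34 moved the other way, from a Ct of 17.87, 19.55, 18.57 and 18.73 without Bst1 to 19.81, 21.29, 19.54 and 19.58 with it, a level lower by 1.37 cycles (difference -1.37, adjusted p = 0.0338, limma). Gfra2 (0.92, adjusted p = 0.0604) and Cd24a (1.08, adjusted p = 0.0505, which 13 of 16 no-RT wells also yielded) were not called.

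No gene's level was called with Cd38 in the main setting: 0 of 41 by limma, with 8 at an unadjusted p under 0.05. Over all 1889 ordered pairs, 2.06% were called higher and 0.847% lower, so 0 of 41 is close to the share over all pairs. The level of Cd34 with minus without Cd38 was -0.50, -2.29, -1.20 and -1.22 cycles on P0 to P3 (mean -1.30, adjusted p = 0.0569, limma). It was called with a Ct limit of 24, and with at least 10 wells on each side. Ly6d was at 0.85, Ebf1 at 0.62, Pax5 at 0.47 and the FOX01 assay at 0.47, none called. A test of the difference between the paralogs, added after the data were seen, called 3 of 40 genes (7.5%): Pax5 by 1.49 cycles and Ebf1 by 1.40 (both adjusted p = 0.0243, limma) and the FOX01 assay by 1.16 (adjusted p = 0.0292). For Cd34 that difference was -0.07 (adjusted p = 0.916). The plate values for Pax5 were 1.63, 1.13, 2.39 and 0.80, and for Ebf1 2.08, 1.16, 1.17 and 1.18.

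Part of these level calls ended with a plate left out as well. Without P2, 0 of the 6 Bst1 calls passed, with Ebf1 at 2.06 (adjusted p = 0.0743, limma), Pax5 at 1.76 (0.0871) and the FOX01 assay at 1.53 (0.0743). Without P1, only Pax5 passed (2.18); without P3, Ebf1 (2.23) and the FOX01 assay (1.67); and without P0 all 3. Ly6d and Cd34 did not pass with any 1 plate left out, at 1.02 to 1.49 and -1.55 to -1.19. With levels centred on the reference genes of each well, Ebf1, the FOX01 assay and Cd34 kept their call, while Pax5 was at 1.54 (adjusted p = 0.069) and Ly6d at 1.18 (adjusted p = 0.0757). With any Ct below 40 counted as a product, 3 of the 6 Bst1 calls passed, Pax5 and Ly6d not among them, and Fut4 was added. At a Ct limit of 24 Ly6d lost its call and Cd24a gained one. With at least 10 wells on each side Pax5 lost its call and Cd24a gained one. The 3 differences between the paralogs were at 1.27, 1.00 and 0.85 for Ebf1, Pax5 and the FOX01 assay after centring, none called. Without P1, P2 or P3, 0 of those 3 passed, and without P0 Ebf1 did (1.17, adjusted p = 0.0302). Across cells with both products the Ct of Bst1 correlated with that of Ebf1 (Spearman rho 0.55, n = 52 cells) and of Pax5 (0.44, n = 35), and that of Cd38 had a rho of -0.06 (n = 42) and 0.17 (n = 25). These cells share plate and cDNA yield, as above.

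**Figure D5:**
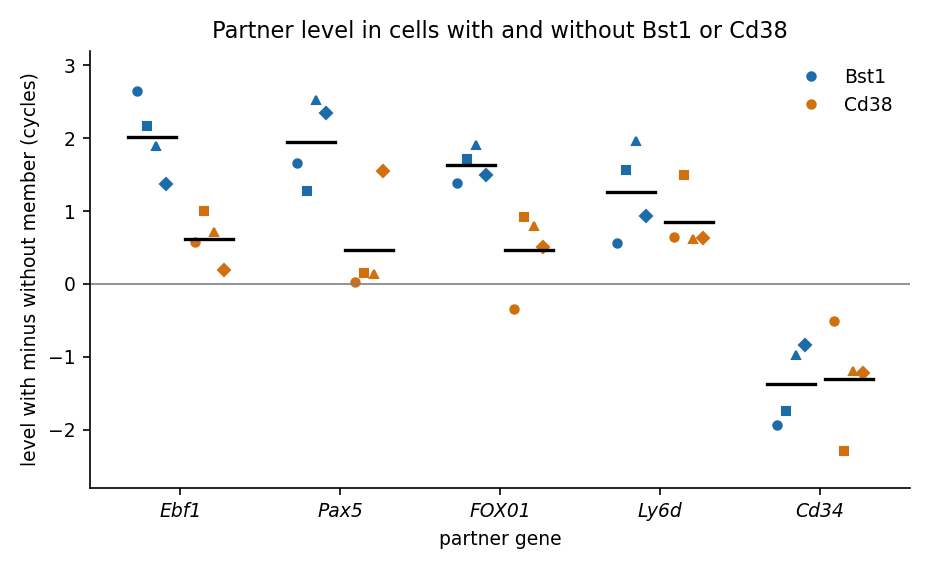
Difference in level (y axis, cycles, with minus without Bst1 in blue or Cd38 in orange) of 5 partner genes (x axis) among cells with the partner's product. Circles, squares, triangles and diamonds are plates P0, P1, P2 and P3, and black bars their mean. Ebf1 lies at 2.02 cycles with Bst1 and 0.62 with Cd38, and Cd34 at -1.37 and -1.30.

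The level of the enzymes themselves was not called as different with any of the few genes that could be tested. For Bst1 these were Cd86, Fli1 and Tnfrsf1a, so none of its 5 called partners was among them. Bst1 had enough cells on both sides for 3 genes and Cd38 for 4, and 0 of these 7 were called by limma, with 2 at an unadjusted p under 0.05. Those were Il4ra, the interleukin 4 receptor, with a Cd38 level at -0.71 cycles in cells that had it relative to the others (adjusted p = 0.153, limma), and Cd86, a co-stimulatory ligand, with a Bst1 level at -0.60 (adjusted p = 0.198). Cd38 differed by -0.17 with Pax5 and by 0.09 with Gfra2.

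Wells with 10 or 20 cells held the 2 enzymes unevenly. In 10-cell wells the Ct of Bst1 was 40 on P0, then 18.14, 13.16 and 17.44, and that of Cd38 was 40, 16.88, 40 and 16.50. In 20-cell wells Bst1 was at 40, 15.55, 14.72 and 16.56, and Cd38 at 15.36, 16.96, 15.21 and 14.81. So Bst1 was missing from both wells of P0, and Cd38 was missing from 2 of 4 10-cell wells and from no 20-cell well. The 10-cell well of P0 gave products for 29 assays, against 68 to 71 in the other 3. Between 20-cell and 10-cell wells, 0 of 59 assays were called by limma (0%), with 4 at an unadjusted p under 0.05. Bst1 was 0.64 cycles higher in the 20-cell wells over P1 to P3 (adjusted p = 0.737, limma), and Cd38 had too few 10-cell wells with a product.

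A well of 20 cells was also set against 20 times the mean amount of the plate's single cells. For Bst1 that sum gave an expected Ct of 14.59, 15.24, 14.18 and 15.08 on P0 to P3, earlier than the 20-cell well in each. For Cd38 it gave 15.24, 15.95, 14.88 and 15.64, earlier on 3 plates and later on P3. The levels differed by -0.84 cycles for Bst1 and by -0.16 for Cd38 (adjusted p = 0.899 for both, limma). For Bst1 the 3 wells with a product were set against the expected values of all 4 plates, that of P0 included. Of 71 assays, 0 were called by limma (0%), with 4 at an unadjusted p under 0.05. With 1 pooled well per plate, these differences lay within the spread of the wells.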

How the data were processed

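The authors deposited Ct values in 1 table of 384 wells and 96 assays. A Ct is a cycle number on an inverted log2 scale, and the table carries no normalization. Per the labels, lysed cells were reverse-transcribed and pre-amplified in their well before reading on a BioMark HD. No software or threshold for the Ct is named ("not given in the sources used here"). Wells were tied to groups by title, with 0 columns unmapped. Of the assay names, 47 matched a symbol and 34 a synonym in the RefSeq table of GRCm38.p6, and 15 keep the table's name. Depth here is the number of assays found per cell (median 43). A missing product means not detected, at a sensitivity unknown per assay.

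A product was a Ct below 28. Kept cells had a product for over 50% of the measured reference genes and for 50% or more of the assays that their plate's median cell yielded. Of the 13 wells left out, 10 were identical columns with no product, and 1 had Cd38. Co-detection was a log2 odds ratio per plate, 0.5 being added to every count. It used genes found in 5% to 95% of cells and, among the 16 no-RT wells, in under 4. Levels needed at least 5 wells on each side per plate. Tests across assays or pairs were run in R 4.3.3 (limma 3.58.1), p-values being adjusted by Benjamini-Hochberg at 0.05, for shares after an arcsine square-root transform. Single values had exact two-sided permutation tests over 4 plates, inverted for the 95% interval. The fits of co-detection, of its difference between the genes and of levels were tested on simulated data, and the other tests were not.

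Groups share plates and are paired by them, per the labels. Deviations from group means correlated, within plates, at -0.19 to 0.05 for no-RT wells and cells, at -0.66 to 0.01 for 10-cell and 20-cell wells, and at -0.08 to 0.24 for 20-cell wells and single cells. The main fits had no plate block. The members, gene lists and tests were chosen with earlier results of these data known. Named genes, some of which are not reported here, were all partners past the threshold, the 5 most alike per gene, and Ebf1, Ly6d, Pax5 and Cd34. Cd24a, Il4ra, Cd86, calls gained under an alternative and uncalled values of other genes were named after their values were seen. Alternatives were other Ct thresholds, no quality control, each plate left out, the plate block, the pseudocount, a split by number of assays, other filters, centring on reference genes and a split by Pax5.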

Additional observations from a re-analysis of the deposited data

Results flagged for a closer look

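Of 40 sets of 4 plate values, 7 had 1 plate far from the other 3 by Dixon's criterion at 95%, which chance alone meets in about 1 set of continuous values in 20. Of the 7, 2 are shares at 0 on 3 plates, which meet it whatever the fourth value, and 1 holds the code 40 for no product, so the count of 7 is not to be read against that rate. The Bst1 share among cells with none of Ebf1, Ly6d and Pax5 was 9.52% on P2 (2 cells) and 0% on the other plates. Among cells with 1 of Ebf1 and Ly6d it was 4.55% on P1 (1 cell) and 0% elsewhere. Bst1 gave no product (Ct 40) in the 20-cell well of P0, while those of P1 to P3 had a Ct of 14.72 to 16.56. The log2 odds ratio of Cd38 with Hoxa9 was -2.15 on P1 and -1.75 to -1.69 on the others. With Il12rb1 it was -3.74 on P0, where 0% of Cd38 cells had Il12rb1, against -1.88 to -1.57 on the others. With Cd34 it was -3.19 on P3 and -2.13 to -1.94 on the others. The difference between Bst1 and Cd38 in the level of Ebf1 was 2.08 cycles on P0 and 1.16 to 1.18 on the others. The cause of these values was not tested.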

How the results depend on the processing

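With each plate left out in turn, Bst1 partners called ranged from 0 to 5 and Cd38 partners from 0 to 3 (5 each with all plates), genes that differed between them in co-detection from 0 to 4 (4), levels called with Bst1 from 0 to 3 (6), and levels that differed between the genes from 0 to 1 (3). The fits then had fewer samples, and no called value turned its sign. Values that were not called turned around 0: the share of Cd38 minus that of Bst1 ranged from -0.77 to 1.92 points, the step in share from none to 1 of Ebf1 and Ly6d from -3.17 to 1.52 points for Bst1 and from -9.31 to 0.012 for Cd38, and that from 1 to both from -2.13 to 5.86 for Cd38. The log2 odds ratio of Cd38 with Ebf1 ranged from -0.19 to 0.065, the Bst1 level in 20-cell minus 10-cell wells from -0.34 to 1.74 cycles, and the Cd38 level in 20-cell wells minus 20 mean single cells from -0.49 to 0.13.

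With a pseudocount of 1, Cd34 and Csf3r were called apart from Bst1, and 9 partners of Cd38 were called, Pax5, Csf1r, Cd4 and Klrb1c being added to the 5. With cells split by number of assays, 8 were called for each gene and 2 in the difference: to the 5 of each, Cd34, Csf3r and Id2 were added as found apart from Bst1, and Pax5, Csf1r and Cd4 as found with Cd38. With a Ct limit of 24, or at least 10 wells on each side, 1 level was called with Cd38, that of Cd34, and at 24 the value of Cd38 with Ebf1 was 0.0035 and the difference in assays found with Cd38 was -0.5. Levels that differed between the genes numbered 0 with any Ct below 40, 0 after centring on reference genes and 1 with at least 10 wells on each side. Centring turned the Bst1 level in 20-cell minus 10-cell wells to -0.49 and the Cd38 level in 20-cell wells to 0.13, neither called. Among cells with Pax5, Bst1 with Ebf1 was at -0.20 and Cd38 with Ly6d at -1.17. With genes in 10% to 90% of cells, the FOX01 assay with Bst1 (1.77) and Pax5 with Cd38 (1.47) were added, and with no filter on no-RT wells CDw199 apart from Cd38 (-1.81). The cause of these changes was not tested.

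With the plate as a replicate block, no adjusted call changed: the paired exact p for the median Ct was 0.125, that of the 3 steps in share at 0.0286 without the block was 0.125 before adjustment, and adjusted p-values for detection were 2.47e-05 for Bst1 and 4.02e-05 for Cd38 (limma). Depth limits all of this: 55 and 56 positive cells leave 12 to 17 per plate, and odds ratios of genes found in nearly all cells, such as Cd34 and Cd72, rest on the few cells that lack them. Those of Bst1 with Ly6d and Ebf1 rest on the 2 and 3 Bst1 cells that lack these products.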
